A study of Daucus carota with 6 samples.

Results

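The genes described are those of metal and iron homeostasis in the fleshy root of carrot (Daucus carota). They were taken by the protein description that the authors attached to each gene, where it named a ferritin, a ferric reduction oxidase, an iron, zinc or copper transporter, a vacuolar iron transporter, a nicotianamine synthase or transporter, a metallothionein, an Nramp transporter, a heavy metal-associated protein or a metal tolerance protein. This gave 92 of the 35073 genes in the table. Of these, 60 reached 1 FPKM in at least 3 of the 6 samples and were tested, 21 were above 0 in some sample without reaching that level, and 11 were listed at 0 in all 6. RNA-seq had been run on roots of betanin-transgenic carrots (BC, 3 samples), which carry the betalain synthesis genes CYP76AD1S, cDOPA5GTS and DODA1S and accumulate the red pigment betanin, and on roots of non-transgenic carrots (WT, 3 samples). The sources used here give no promoter, plant age or number of transgenic lines for these roots. The comparison asked how transcript levels differ between roots that make betanin and roots that do not.

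Plants need iron, zinc, copper and manganese as cofactors, and free ions of iron and copper are toxic. Cells therefore reduce and import them, bind them to small chelators such as nicotianamine and to cysteine-rich metallothioneins, store iron in ferritin shells inside plastids, and move the rest between cytosol, vacuole and organelles by families of membrane transporters. In a storage root the metals arrive through the outer cell layers and the vascular tissue, and much of what is kept is held in vacuoles and plastids.

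Levels are given in FPKM, fragments per length of transcript and size of library, and means are followed by ± SD over 3 samples. Log2 fold changes are BC minus WT on log2(FPKM + 1), which understates the change of low genes. A gene is called higher or lower in BC at a Benjamini-Hochberg (BH) adjusted p below 0.05 in limma, adjusted over all 21033 tested genes. FPKM totals were 1184880 to 1287460 per BC sample and 1141950 to 1186760 per WT sample, and the read depth behind them is unknown. Whether the samples of a group are separate plants is not stated, and the p-values cover only the spread between these samples. The summed level of 67 genes that mark green tissue, 6 of them at 0 throughout, was 21284 to 24896 FPKM in BC and 6167 to 9285 FPKM in WT. Of the genes searched as root markers, 6 Dau c allergen genes summed to 4688 to 10328 FPKM in BC and 2847 to 3033 FPKM in WT, while the 1 Casparian strip gene was at 0 in all samples. The 17 genes searched as seed markers, 2 of them at 0 in all samples, summed to 59.4 to 78.2 FPKM in BC and 43.3 to 48.7 FPKM in WT. Among them 10 oleosin genes summed to 39.5 to 59.5 FPKM in BC and 20.2 to 21.8 FPKM in WT. The 3 vicilin genes went the other way, with 11.4 to 13 FPKM in BC and 18.3 to 22.0 FPKM in WT, and the 4 legumin genes overlapped. For 26 flower and pollen genes, 5 of them at 0 throughout, the sums were 511 to 600.2 FPKM in BC and 609 to 789 FPKM in WT. Of this, 1 gene described as anther-specific had 276 to 363 FPKM in BC and 241 to 363 FPKM in WT. The 18 agamous-like genes summed to 134 to 147 FPKM in BC and 211 to 229 FPKM in WT, and 6 floral homeotic genes to 92.0 to 101 and 155 to 196 FPKM. For 13 vascular genes, 11 of them phloem protein 2 genes and none at 0 throughout, the sums were 64.5 to 134 FPKM in BC and 335 to 1072 FPKM in WT. Nearly all of this came from the phloem protein 2 genes. The other 2, sieve element occlusion genes, overlapped, with 1.78 to 11.6 FPKM in BC and 1.66 to 6.23 FPKM in WT. The searched words laticifer and xylem cysteine found 0 genes. In such bulk samples fewer cells of a type and less RNA per cell cannot be told apart, and the part of these tissue differences in the results below was not tested.

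Of the 60 tested genes, 35 were called, against 46.4% of all tested genes. Higher levels in BC were called for 24, which is 40% against a background of 22.8%, and lower levels for 11, which is 18.3% against 23.5%. At least 2-fold on the log2(FPKM + 1) scale, 16 were higher and 6 lower (background 12.7% and 7.23%). The median log2 fold change was 0.31 over the 60 genes and -0.02 over all tested genes. The BC and WT values did not overlap for 35 of the 60 genes, against 57.1% of all tested genes. Of the 60, 11 were under 1 FPKM in every sample of 1 group, so they could pass the minimum level only by differing; 7 of these were higher in BC and 4 lower. Without them 17 of 49 were higher and 7 lower, which is 34.7% and 14.3%, against 19.3% and 22.8% of the 19440 tested genes of that kind. With a minimum of 5 FPKM 14 of 41 members were higher and 7 lower, which is 34.1% and 17.1%, against 21.7% and 25.7% of the 16646 genes then tested.

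**Figure D1:**
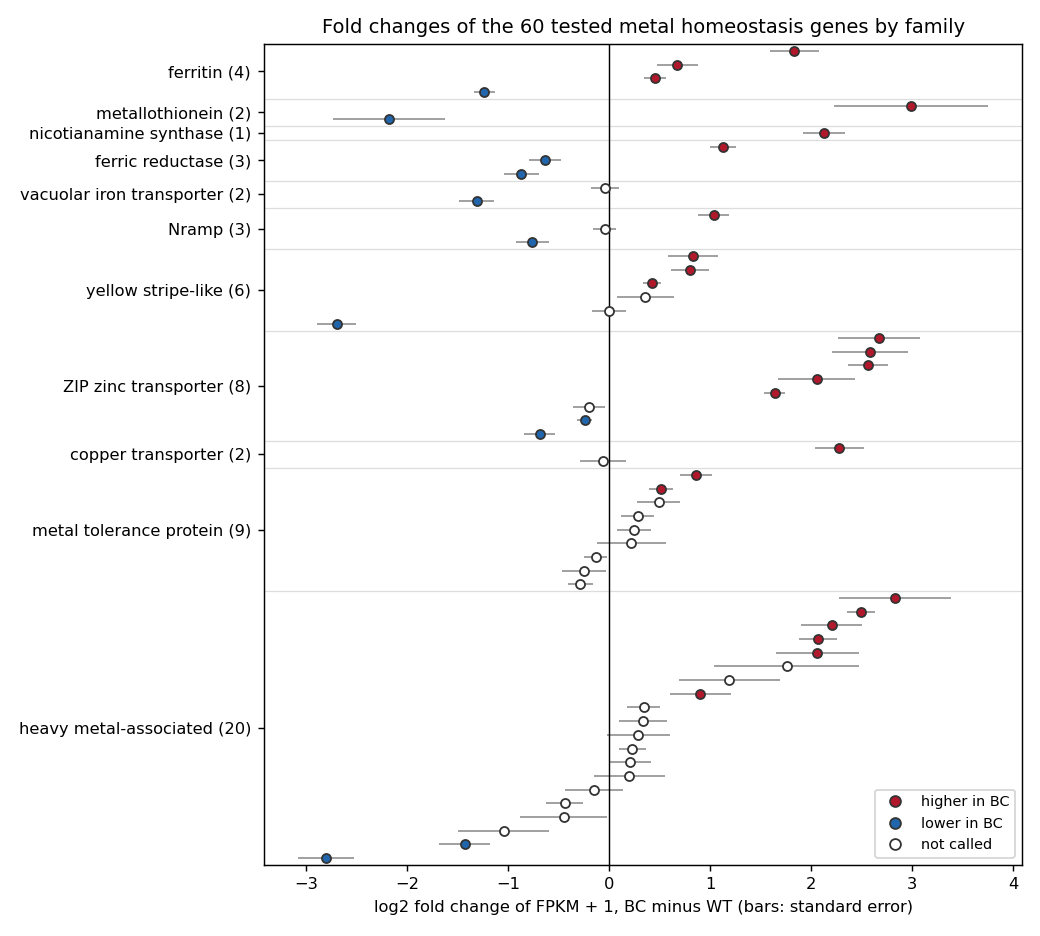
Log2 fold change of FPKM + 1, BC minus WT, for each of the 60 tested metal homeostasis genes, grouped by family with the number tested in brackets. Points are the fitted values, bars the standard error, red and blue fill the 24 genes called higher and the 11 called lower in BC. Ferritins, metallothioneins, ferric reductases, Nramp, yellow stripe-like, zinc transporter and heavy metal-associated genes had members on both sides, and 7 of 9 metal tolerance proteins were not called.

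Ferritins are the iron stores of the plastid. All 4 genes were called and 3 were higher in BC, against 46.4% and 22.8% of all tested genes. Ferritin-3 (DCAR_011843.v1.0), the most abundant, was at 969, 882 and 803 FPKM in BC replicates 1 to 3 and at 662, 658 and 614 FPKM in WT replicates 1 to 3. All BC samples stood above all WT samples, by a log2 fold change of 0.45 (SE 0.11, limma BH-adjusted p = 0.0173). A gene described as ferritin, chloroplastic (DCAR_024000.v1.0) had 121, 95.1 and 76.3 FPKM in BC against 71.7, 61.4 and 48.0 FPKM in WT, with a log2 fold change of 0.67 (SE 0.21). Its lowest BC sample and highest WT sample were close together. Ferritin-2 (DCAR_024802.v1.0), the lowest of the 4, had 20.7, 24.7 and 12.7 FPKM in BC against 5.22, 4.04 and 4.38 FPKM in WT, a rise of 1.83 on the log2 scale (SE 0.24, limma BH-adjusted p = 0.00135). In the opposite direction, the ferritin-like gene DCAR_028879.v1.0 had 68.0, 60.3 and 54.6 FPKM in BC against 150.1, 135 and 148 FPKM in WT, and fell by 1.24 on the log2 scale (SE 0.10, limma BH-adjusted p = 0.00019). It was the second most abundant ferritin in WT and the third in BC. Summed over the family, ferritin transcripts came to 1179, 1063 and 947 FPKM in BC and 889, 859 and 815 FPKM in WT, with ferritin-3 the bulk of each sum. Calls of the smaller rises depended on single samples. That of ferritin-3 was lost on leaving out replicate 3 of WT or 1 of BC (limma BH-adjusted p = 0.0844 and 0.0621, range over all alternatives 0.0125 to 0.0844). That of DCAR_024000.v1.0 was lost on leaving out replicate 2 or 3 of WT or replicate 1 or 2 of BC, or the minimum level (limma BH-adjusted p = 0.0689, 0.110, 0.104, 0.0759 and 0.0513, range 0.00691 to 0.110).

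Metallothioneins, small cysteine-rich proteins that bind copper and zinc, changed in opposite directions. Metallothionein-like protein type 2 (DCAR_018908.v1.0), the most abundant of the 92 genes by the mean over all 6 samples but below ferritin-3 in each BC sample, was at 687, 146 and 577 FPKM in BC and at 1886, 1559 and 1843 FPKM in WT. Every BC sample was below every WT sample, and BC replicate 2 was far below the other two. The log2 fold change was -2.18 (SE 0.56, limma BH-adjusted p = 0.0187). Metallothionein-like protein 1 (DCAR_005336.v1.0) was at 439, 674 and 74.9 FPKM in BC and at 28.1, 34.2 and 43.0 FPKM in WT. Here BC replicate 2 was highest and BC replicate 3 lay much nearer to WT than to the other two, with a log2 fold change of 2.99 (SE 0.76, limma BH-adjusted p = 0.0185). The changes thus varied widely among BC samples in size but not in direction. Without BC replicate 2 the log2 fold changes were -1.48 for type 2 and 2.36 for protein 1, and without BC replicate 3 that of protein 1 was 3.94. The call of type 2 was lost on leaving out replicate 1 or 3 of WT (limma BH-adjusted p = 0.0568 and 0.0599, range 0.00162 to 0.0599), and that of protein 1 without WT replicate 1 or BC replicate 1 (limma BH-adjusted p = 0.0591 and 0.0696, range 0.000289 to 0.0696). The third metallothionein gene (DCAR_014852.v1.0) was listed at 0 in all samples.

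Every one of the 92 genes also carried, in the deposited annotation, the Pfam protein domain of its family. The same domains were held by other genes, some without a described function and some described as other proteins. These were looked up after the values of the 92 genes had been seen, and the ones named here were chosen for their values. The ferric reductase domain was held by 14 such genes, respiratory burst oxidases among them. Of 6 tested 0 were higher in BC and 4 lower, against 22.8% and 23.5% of all tested genes. For metallothioneins the domain added 2 genes. DCAR_005972.v1.0 ranked second among all genes of the table by mean level and had 6987, 8082 and 5709 FPKM in BC against 13337, 13033 and 16825 FPKM in WT. Its level in WT replicate 3 was the highest of any gene in that sample, and all BC samples were below all WT samples, with a log2 fold change of -1.06 (SE 0.27, limma BH-adjusted p = 0.0190). The call was lost with no minimum level, with the replicate number as a block and on leaving out replicate 1 or 3 of WT or replicate 1 of BC (limma BH-adjusted p = 0.178, 0.0578, 0.0587, 0.0931 and 0.0598, range 0.00260 to 0.178). DCAR_019551.v1.0 went the other way, with 966, 991 and 623 FPKM in BC against 121, 112 and 124 FPKM in WT, a log2 fold change of 2.82 (SE 0.19, limma BH-adjusted p = 6.58e-05). With these genes, the 5 that hold the domain summed to 9079, 9892 and 6985 FPKM in BC and 15373, 14739 and 18834 FPKM in WT, so the sum was lower in each BC sample than in each WT sample. The sum is set by DCAR_005972.v1.0.

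Nicotianamine synthase makes the chelator that carries iron, zinc and copper through the phloem. Of its 2 genes, DCAR_029351.v1.0 had 4.8, 3.55 and 2.74 FPKM in BC against 0.19, 0 and 0 FPKM in WT, and DCAR_020117.v1.0 was listed at 0 in every sample. The first was thus seen at a low level in all 3 BC samples and in 1 WT sample, with a log2 fold change of 2.12 (SE 0.21). It is one of the genes that passed the minimum level only through BC, so its call is not independent of that minimum. With a pseudocount of 0.1 or 5 in place of 1 the fold change was 4.70 or 0.77.

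**Figure D2:**
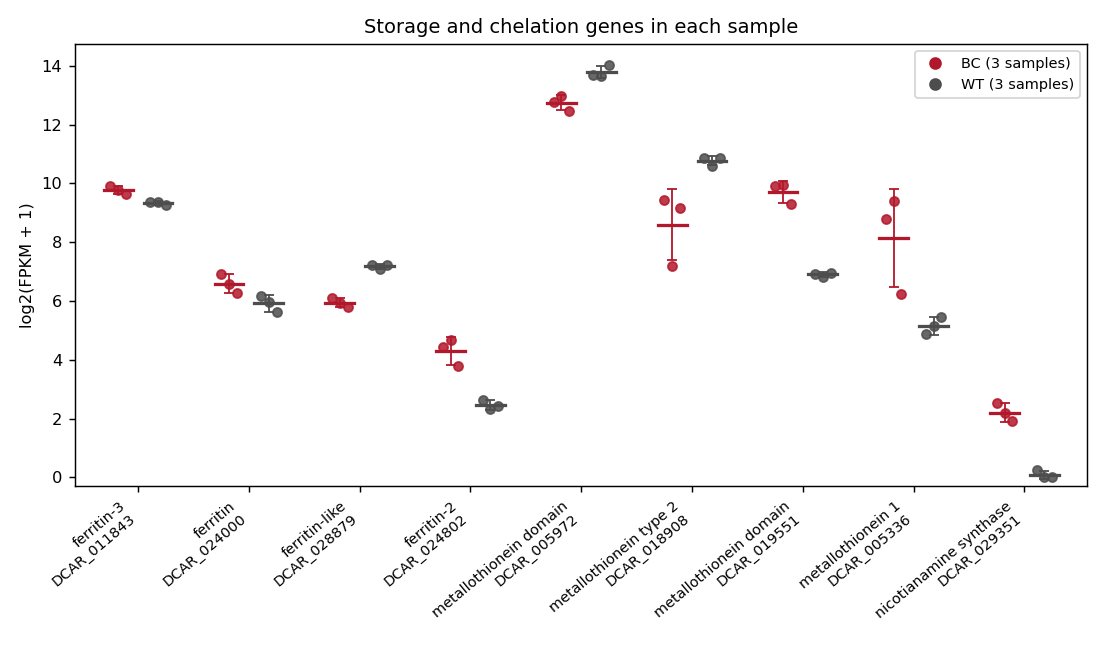
Levels of storage and chelation genes as log2(FPKM + 1), BC in red and WT in grey, with 1 point per sample, the mean as a bar and the SD as a whisker (3 samples each). Ferritin-3, DCAR_024000.v1.0, ferritin-2, metallothionein-like protein 1, DCAR_019551.v1.0 and nicotianamine synthase were higher in BC; the ferritin-like gene, DCAR_005972.v1.0 and metallothionein type 2 were lower.

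Ferric reduction oxidases reduce ferric iron before it is taken up. The root-surface type of Arabidopsis is FRO2, and here 3 genes described as FRO2-like were untested, with DCAR_025203.v1.0 listed at 0 throughout. The others, DCAR_005357.v1.0 and DCAR_005358.v1.0, are neighbours in the RefSeq carrot assembly DH1 v3.0. DCAR_005357.v1.0 had 1.34, 0.47 and 2.99 FPKM in BC against 0.18, 0.59 and 0.10 FPKM in WT. DCAR_005358.v1.0 had 1.23, 2.88 and 0.47 FPKM in BC against 0.30, 0.41 and 0.27 FPKM in WT. Both were thus near or under 1 FPKM in most samples, and each reached it in 2 BC samples and no WT sample. Ferric reduction oxidase 8 (DCAR_026171.v1.0), described as mitochondrial, was the most abundant, with 15.1, 18.3 and 16.7 FPKM in BC against 6.33, 8.03 and 6.99 FPKM in WT. It rose by 1.13 on the log2 scale (SE 0.13, limma BH-adjusted p = 0.000803). Both genes described as ferric reduction oxidase 7, the chloroplast type, were lower in BC. DCAR_022318.v1.0 had 0.60, 0.50 and 0.91 FPKM in BC against 1.71, 2.07 and 2.37 FPKM in WT, and DCAR_001876.v1.0 had 0.32, 0.40 and 0.59 FPKM in BC against 1.32, 1.04 and 1.33 FPKM in WT. Both passed the minimum level only through WT. Their log2 fold changes were -0.87 and -0.64, and -1.51 and -1.33 with a pseudocount of 0.1. The call of DCAR_001876.v1.0 was lost with the replicate number as a block and on leaving out replicate 1 or 3 of WT or replicate 1 of BC (limma BH-adjusted p = 0.0563, 0.0531, 0.0666 and 0.0667, range 0.00383 to 0.0667).

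Reduced iron enters Arabidopsis roots through IRT1, a member of the ZIP family. The table describes 2 carrot genes as Fe(2+) transport proteins, words that the selection did not search and that were noticed after the values had been seen. DCAR_004320.v1.0 was listed at 0 in all 6 samples and DCAR_007793.v1.0 at 0 in 5, with 0.06 FPKM in WT replicate 3.

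Vacuolar iron transporters load iron into the vacuole. Vacuolar iron transporter 1 (DCAR_023568.v1.0) had 8.81, 10.3 and 11.6 FPKM in BC against 10.2, 11.5 and 9.87 FPKM in WT, groups that overlapped (limma BH-adjusted p = 0.821). Of 4 genes described as homologs, 3 were near or at 0 in all samples. The remaining one, DCAR_016699.v1.0, had 0.08, 0.08 and 0.15 FPKM in BC against 1.40, 1.67 and 2.21 FPKM in WT, a low transcript that was close to absent in BC. It passed the minimum level only through WT, so its call is not independent of that minimum. Its log2 fold change was -1.31 (SE 0.17), or -3.19 and -0.40 with a pseudocount of 0.1 and 5.

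Nramp transporters move manganese and iron, and the 3 tested genes each behaved differently. Nramp3-like DCAR_025769.v1.0, whose Arabidopsis counterpart releases metals from the vacuole, had 19.7, 19.0 and 25.5 FPKM in BC against 39.2, 30.5 and 41.1 FPKM in WT and fell by 0.76 on the log2 scale (SE 0.16, limma BH-adjusted p = 0.00890). Nramp1 (DCAR_025566.v1.0), a manganese importer in Arabidopsis, had 2.42, 2.59 and 2 FPKM in BC against 0.65, 0.69 and 0.54 FPKM in WT, with a log2 fold change of 1.03 (1.74 and 0.38 with a pseudocount of 0.1 and 5). It passed the minimum level only through BC. Nramp2 (DCAR_020083.v1.0) was at 9.30 ± 0.88 FPKM in BC and 9.60 ± 0.34 FPKM in WT and was not called (limma BH-adjusted p = 0.779). The sum of the 5 Nramp genes was 31.1 to 38.7 FPKM in BC and 41.4 to 51.0 FPKM in WT.

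Yellow stripe-like transporters carry metals bound to nicotianamine. Of 12 genes 6 were tested, 3 of them higher and 1 lower in BC. These are 50% and 16.7%, against 22.8% and 23.5% of all tested genes. The 2 genes described as YSL6, which in Arabidopsis acts at the chloroplast, went in opposite directions. DCAR_000954.v1.0 had 42.6, 45.3 and 38.5 FPKM in BC against 31.5, 31.0 and 31.1 FPKM in WT, a log2 fold change of 0.42 (SE 0.09, limma BH-adjusted p = 0.00930). DCAR_014496.v1.0 had 0.23, 0.08 and 0.04 FPKM in BC against 6.08, 7.86 and 5.03 FPKM in WT, so it was near 0 in all BC samples and in no WT sample. It passed the minimum level only through WT, so its call is not independent of that minimum. Its log2 fold change was -2.70 (SE 0.19), or -4.96 and -1.14 with a pseudocount of 0.1 and 5. The sum of the family was nevertheless set by DCAR_000954.v1.0 and a YSL7 gene (DCAR_003384.v1.0), which had 23.6 ± 4.14 FPKM in BC and 23.5 ± 3.83 FPKM in WT and was not called. Both YSL3-type genes were higher in BC at a low level. DCAR_006542.v1.0, named outside the rule for named genes, had 3.69 ± 0.30 FPKM in BC and 1.73 ± 0.60 FPKM in WT, and DCAR_008963.v1.0 had 3.06 ± 0.72 FPKM in BC and 1.31 ± 0.57 FPKM in WT. Their calls were fragile. That of DCAR_006542.v1.0 was lost on leaving out replicate 3 of WT or 1 of BC (limma BH-adjusted p = 0.0564 and 0.0578, range 0.00579 to 0.0578). That of DCAR_008963.v1.0 was lost with quantile normalization, with the replicate number as a block and on leaving out replicate 2 or 3 of WT or replicate 1 or 2 of BC (limma BH-adjusted p = 0.196, 0.0762, 0.0607, 0.0668, 0.0950 and 0.0834, range 0.0268 to 0.196).

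Zinc transporters of the ZIP family bring zinc and other divalent ions into the cytosol, and several of them are induced by zinc shortage in Arabidopsis. Of 8 tested genes 5 were higher in BC, each by more than 2-fold, and 2 were lower. These are 62.5% and 25%, against 22.8% and 23.5% of all tested genes. Zinc transporters 5, 6 and 10 passed the minimum level only through BC, and among the other 5 tested genes 2 were higher and 2 lower. Zinc transporter 1 (DCAR_019909.v1.0) had 72.0, 83.6 and 70.4 FPKM in BC against 23.0, 22.1 and 25.4 FPKM in WT, with little spread inside either group and a log2 fold change of 1.64 (SE 0.10, limma BH-adjusted p = 5.03e-05). Zinc transporter 4-like DCAR_004424.v1.0 had 16.8, 15.8 and 12.4 FPKM in BC against 1.12, 2.04 and 2.02 FPKM in WT, a rise of 2.56 on the log2 scale (SE 0.20). The ratio of its mean levels was 8.68. Zinc transporter 6 (DCAR_007355.v1.0) had 13.5, 14.2 and 4.79 FPKM in BC against 0.89, 0.89 and 0.67 FPKM in WT, so that BC replicate 3 lay between WT and the other two BC samples. Zinc transporter 5-like DCAR_011701.v1.0 had 5.12, 10.96 and 2.68 FPKM in BC against 0, 0.05 and 0 FPKM in WT. It was the tested ZIP gene with the least signal in WT. Zinc transporter 10 (DCAR_003795.v1.0), named outside the rule for named genes, had 2.07, 5.21 and 7 FPKM in BC against 0, 0.32 and 0.61 FPKM in WT. Here BC replicate 3 was the highest, unlike in the other raised ZIP genes. Log2 fold changes of zinc transporters 6, 5 and 10 were 2.58, 2.67 and 2.06, and they were called under every alternative that tested them. Their size depended on the pseudocount, with 3.43, 5.57 and 3.81 at 0.1 and 1.38, 1.099 and 0.85 at 5, and that of zinc transporter 4 was 1.57 at 5.

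The ZIP genes that fell were those described as At3g08650 type and ZTP29, which in Arabidopsis is located in the endoplasmic reticulum. DCAR_029461.v1.0, of the At3g08650 type, had 27.9, 25.3 and 27.7 FPKM in BC against 52.8, 35.1 and 45.7 FPKM in WT, and fell by 0.69 on the log2 scale (SE 0.15, limma BH-adjusted p = 0.0111). ZTP29 (DCAR_031567.v1.0) had 67.3, 64.4 and 62.6 FPKM in BC against 79.2, 77.7 and 73.5 FPKM in WT, a log2 fold change of -0.24 (SE 0.08). The groups did not overlap, but the call was lost with median-ratio size factors, without a trend, with the replicate number as a block and without any 1 of the 6 samples (limma BH-adjusted p = 0.0754, 0.0746, 0.0790 and 0.0649 to 0.107, range over all alternatives 0.0118 to 0.107). Summed over the family, ZIP transcripts came to 210, 226 and 193 FPKM in BC and 162, 145 and 155 FPKM in WT. Outside the description rule, 9 more genes held the ZIP domain, the Fe(2+) transport genes among them. Of 6 tested 1 was higher in BC and 0 were lower, against 22.8% and 23.5% of all tested genes. The higher one, DCAR_000795.v1.0, had 36.9, 46.7 and 27.3 FPKM in BC against 8.69, 8.30 and 9.16 FPKM in WT, a log2 fold change of 1.93 (SE 0.19, limma BH-adjusted p = 0.000396).

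Copper transporters of the Ctr family had 5 genes, of which 2 were tested. Copper transporter 5.1 (DCAR_001242.v1.0), whose Arabidopsis counterpart releases copper from the vacuole, had 149.6, 152 and 113 FPKM in BC against 21.8, 40.1 and 23.5 FPKM in WT. All BC samples were far above all WT samples, with a log2 fold change of 2.28 (SE 0.24, limma BH-adjusted p = 0.000552). The copper transporter 6-like gene DCAR_007413.v1.0, of a type that imports copper across the plasma membrane, had 17.5, 14.4 and 22.2 FPKM in BC against 14.2, 24.0 and 18.8 FPKM in WT and was not called (limma BH-adjusted p = 0.845). Copper transporter 5.1 was the larger of the 2 in every sample.

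**Figure D3:**
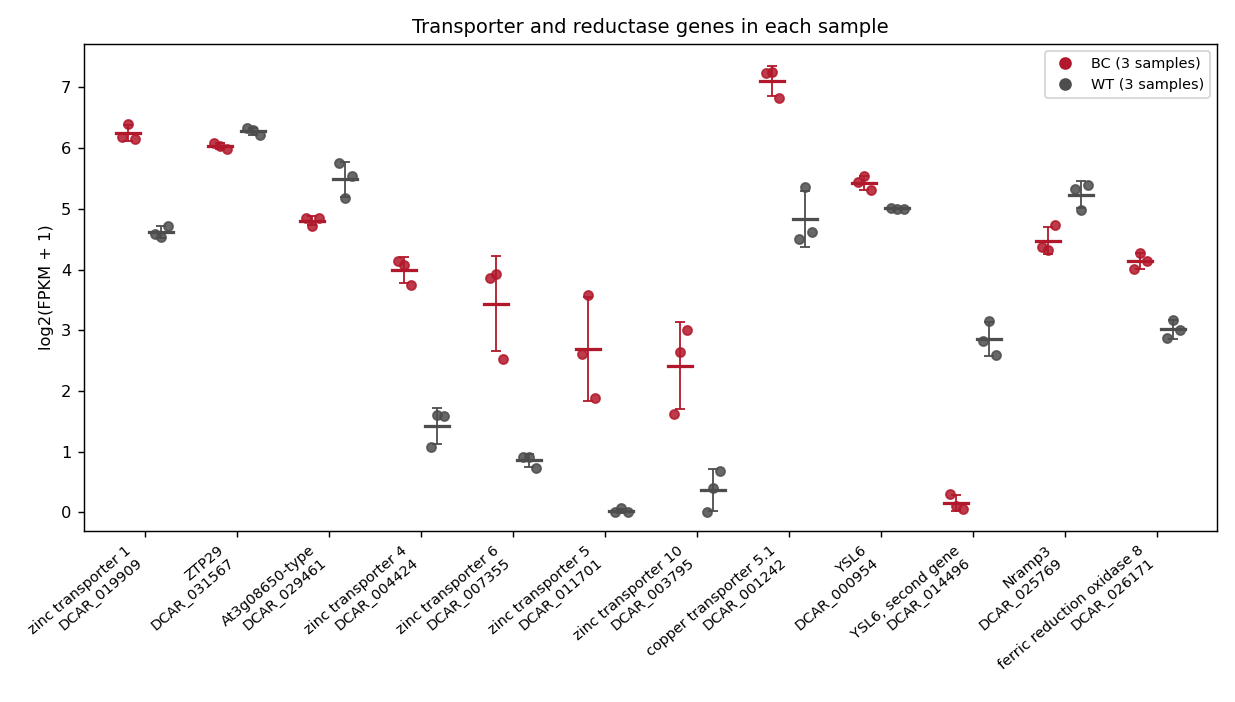
Levels of zinc, copper, nicotianamine-metal and Nramp transporter genes and of ferric reduction oxidase 8 as log2(FPKM + 1), BC in red and WT in grey, with 1 point per sample, the mean as a bar and the SD as a whisker (3 samples each). Zinc transporters 1, 4, 5, 6 and 10 and copper transporter 5.1 stood above WT in all 3 BC samples, while the second YSL6 gene was near 0 in BC and at 5.03 to 7.86 FPKM in WT.

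Metal tolerance proteins export zinc or manganese from the cytosol into vacuoles and other compartments, and most were not called. Of 9 tested genes 2 were higher and 0 lower in BC, and the 22.2% higher lies near the 22.8% of all tested genes. Metal tolerance protein 11 (DCAR_015229.v1.0), a manganese exporter of the secretory pathway in Arabidopsis, had 98.0, 100.1 and 77.6 FPKM in BC against 64.6, 60.1 and 67.0 FPKM in WT, with a log2 fold change of 0.51 (SE 0.12, limma BH-adjusted p = 0.0128). Its call was lost without BC replicate 1 (limma BH-adjusted p = 0.0528, range 0.00285 to 0.0528). Metal tolerance protein 9 (DCAR_009656.v1.0) had 1.32, 1.07 and 1.49 FPKM in BC against 0.34, 0.30 and 0.15 FPKM in WT, with a log2 fold change of 0.86 (1.97 and 0.26 with a pseudocount of 0.1 and 5). It passed the minimum level only through BC. The call was lost with quantile normalization (limma BH-adjusted p = 0.0843, range 0.00199 to 0.0843). The other 7 tested members had log2 fold changes of -0.29 to 0.49. Both genes described as metal tolerance protein 1, which loads zinc into the vacuole in Arabidopsis, were among them. DCAR_006569.v1.0 had 11.4 ± 2.01 FPKM in BC and 13.9 ± 3.996 FPKM in WT, and DCAR_007405.v1.0 had 12.003 ± 2.97 FPKM in BC and 8.20 ± 1.70 FPKM in WT.

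Heavy metal-associated isoprenylated plant proteins, small proteins with a metal-binding domain and a lipid anchor, were the largest family, with 29 genes and 20 tested. The most abundant by the mean over all 6 samples were not called. DCAR_016378.v1.0 had 385 ± 70.8 FPKM in BC and 523 ± 92.0 FPKM in WT (limma BH-adjusted p = 0.0860, and 0.0389 without BC replicate 3, range 0.0389 to 0.247). Nor were the next most abundant, DCAR_007502.v1.0 with 309 ± 53.7 FPKM in BC and 249 ± 69.8 FPKM in WT, and DCAR_002239.v1.0 with 327 ± 44.7 FPKM in BC and 259 ± 45.0 FPKM in WT. Below these, 6 members were higher in BC and 2 lower, which is 30% and 10% of the tested members against 22.8% and 23.5% of all tested genes. DCAR_022767.v1.0 had 22.2, 21.6 and 27.0 FPKM in BC against 3.04, 3.29 and 3.75 FPKM in WT, a tight pair of groups with a log2 fold change of 2.49 (SE 0.14, limma BH-adjusted p = 2.69e-05). A gene with a numbered ID, novel1239, had 69.5, 79.3 and 38.3 FPKM in BC against 15.9, 9.30 and 12.04 FPKM in WT. Another, novel2889, had 49.7, 67.0 and 47.6 FPKM in BC against 12.04, 9.99 and 14.9 FPKM in WT. Both rose, by log2 fold changes of 2.20 (SE 0.30) and 2.07 (SE 0.18).

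Lower in abundance, DCAR_007285.v1.0 had 12.6, 14.1 and 2.64 FPKM in BC against 0.23, 0.69 and 0 FPKM in WT, and DCAR_017683.v1.0 had 8.56, 16.3 and 4.48 FPKM in BC against 1.65, 0.82 and 1.59 FPKM in WT. BC replicate 3 was the lowest of the BC samples for both, and DCAR_007285.v1.0 passed the minimum level only through BC. Their log2 fold changes were 2.83 and 2.06, and 1.37 and 1.14 with a pseudocount of 5. That of DCAR_007285.v1.0 was 4.73 with a pseudocount of 0.1 and 3.49 without BC replicate 3. DCAR_014996.v1.0 had 14.6, 20.3 and 9.38 FPKM in BC against 9.39, 5.26 and 7.12 FPKM in WT, so the groups overlapped by a small margin. Its log2 fold change of 0.90 was called (limma BH-adjusted p = 0.0467), but not with no minimum level, totals made equal, median ratios, quantiles, no trend or the replicate number as a block (limma BH-adjusted p = 0.0703, 0.0501, 0.0612, 0.0975, 0.0517 and 0.0858). The call was also lost on leaving out replicate 2 or 3 of WT or replicate 1 or 2 of BC (limma BH-adjusted p = 0.122, 0.115, 0.125 and 0.114, range over all alternatives 0.0161 to 0.125).

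The members that fell were DCAR_014247.v1.0, described as protein 20 of the family, with 7.64, 4.62 and 11.3 FPKM in BC against 61.4, 62.8 and 49.8 FPKM in WT, and DCAR_024565.v1.0, with 1.47, 0.74 and 1.27 FPKM in BC against 4.36, 6.91 and 3.50 FPKM in WT. The first fell by 2.80 on the log2 scale (SE 0.28, limma BH-adjusted p = 0.000406), the largest fall among the 60 genes on this scale. The second, named outside the rule for named genes, fell by 1.43 (0.67 with a pseudocount of 5). Another gene described as protein 20, DCAR_009368.v1.0, picked once its values were known, had 15.0, 3.76 and 36.9 FPKM in BC against 2.74, 5.28 and 2.20 FPKM in WT and was not called (limma BH-adjusted p = 0.0865). One of its BC samples lay inside the WT range and the others above it. Of the 21 members above 0 that were not tested, the highest value was 6.48 FPKM, in DCAR_029550.v1.0 of this family, which had 3.10, 6.48 and 0.21 FPKM in BC and was listed at 0 in all WT samples. Summed over 29 genes, the family had 1721, 1885 and 1604 FPKM in BC and 1633, 1530 and 1591 FPKM in WT. Outside the description rule, 50 more genes held the heavy metal-associated domain, copper ATPases among them. They are in neither the counts nor the sum of this family. Of 31 tested, 13 were higher in BC and 7 lower, against 22.8% and 23.5% of all tested genes.

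**Figure D4:**
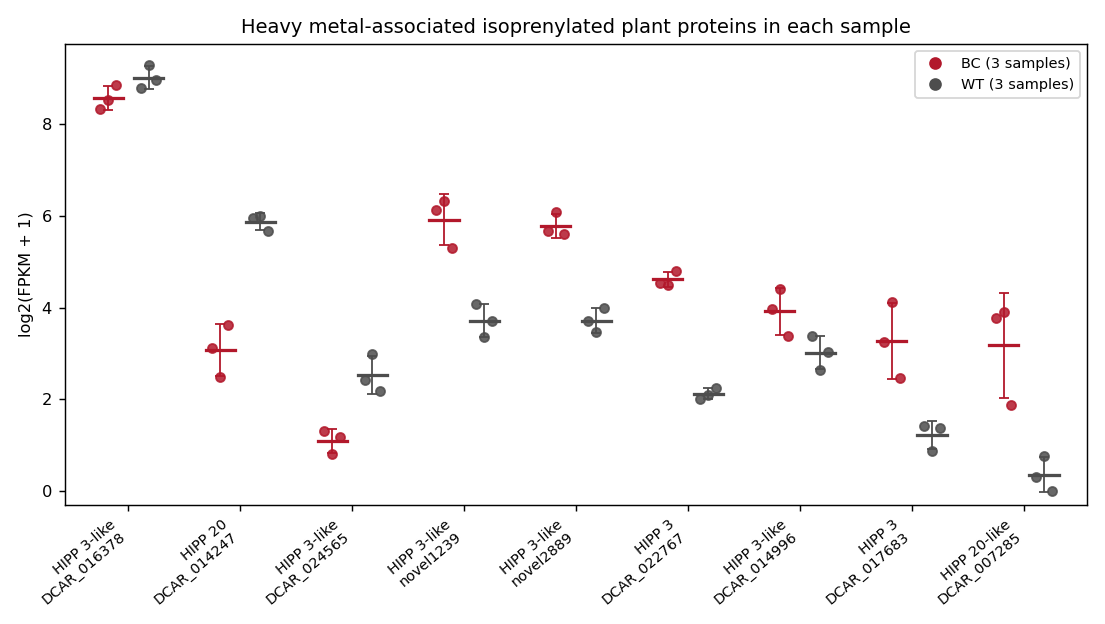
Levels of heavy metal-associated isoprenylated plant proteins (HIPP) as log2(FPKM + 1), BC in red and WT in grey, with 1 point per sample, the mean as a bar and the SD as a whisker (3 samples each). The most abundant gene by the mean over all samples (DCAR_016378) was not called, the next 2 were lower in BC and the other 6 higher. The groups of DCAR_014996 overlap.

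The raised genes followed the same order of BC samples more often than not. Of the 24 members called higher, BC replicate 2 was highest, replicate 1 next and replicate 3 lowest for 15 (62.5%), against 29.3% of all genes called higher in BC. BC replicate 3 was the lowest of the BC samples for 19 of them (79.2%), against 44% of all genes called higher. The members are not independent of each other, and the order was looked at after the values had been seen, so these shares are a description.

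A separate list of search words took other genes by description, for iron-sulfur cluster assembly, ferrochelatase, mitoferrin, oligopeptide and magnesium transporters, metal ATPases, copper chaperones, superoxide dismutases and other metal proteins, with 71 genes and 63 tested. For 3 of these, none of them called, the leading description names another protein, such as a codeinone reductase. In this list 18 rose and 18 fell, 28.6% each, against 22.8% and 23.5% of all genes, and the median log2 fold change was 0.01. The number that rose was 11 without WT replicate 1, 7 without WT replicate 3 and 10 without BC replicate 1. Among the fits with 1 sample left out, the number of all tested genes called higher was also lowest without WT replicate 3. Whether the list fell more than all genes was not tested. Genes of copper use moved in both directions. Plastocyanin (DCAR_013894.v1.0), the copper protein of photosynthetic electron transport, had 151, 128 and 126 FPKM in BC against 10.5, 9.56 and 7.36 FPKM in WT, the largest rise of the list on the log2(FPKM + 1) scale, by 3.75 (SE 0.14, limma BH-adjusted p = 5.78e-06). By the ratio of means the blue copper protein-like gene DCAR_020168.v1.0, picked once its values were known, rose more, with 16.4, 29.4 and 1.92 FPKM in BC against 0.13, 0.27 and 0.13 FPKM in WT. It passed the minimum level only through BC. Its log2 fold change of 3.30 was 5.21 and 1.73 with a pseudocount of 0.1 and 5, 2.60 without BC replicate 2 and 4.29 without BC replicate 3. Its call was lost on leaving out replicate 3 of WT or 1 of BC (limma BH-adjusted p = 0.0503 and 0.0605, range 0.000261 to 0.0605). The copper-zinc superoxide dismutase 2-like gene DCAR_003297.v1.0 had 11.3, 5.17 and 3.41 FPKM in BC against 204, 114 and 169 FPKM in WT, the largest fall on the same scale, with a log2 fold change of -4.52 (-3.87 with a pseudocount of 5). The most abundant tested gene of the list by the mean over all 6 samples, a membrane magnesium transporter (DCAR_020822.v1.0), had 573 ± 9.13 FPKM in BC and 468 ± 21.1 FPKM in WT. Its call (limma BH-adjusted p = 0.0346) was lost with equal totals, quantile normalization, the replicate number as a block and without any 1 sample other than WT replicate 2 (limma BH-adjusted p = 0.155, 0.233, 0.0867 and 0.0516 to 0.123, range 0.0327 to 0.233).

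Some further genes of that list were picked once their values were known, to show superoxide dismutases, copper chaperones and metal ATPases in both directions. Of 5 copper-zinc superoxide dismutases, which need copper and zinc as cofactors, 3 were lower in BC, 1 was higher and 1 was not called. Of all tested genes 23.5% were lower and 22.8% higher. Beside the 2-like gene above, DCAR_030571.v1.0 had 373, 328 and 257 FPKM in BC against 803, 501 and 667 FPKM in WT, with a log2 fold change of -1.03 (SE 0.21, limma BH-adjusted p = 0.00812). DCAR_015506.v1.0, described as chloroplastic, went the other way, with 238, 261 and 194 FPKM in BC against 172, 173 and 173 FPKM in WT, a log2 fold change of 0.41 (SE 0.12, limma BH-adjusted p = 0.0307). Its call was lost with median ratios, with the replicate number as a block, and without any 1 sample other than BC replicate 3 (limma BH-adjusted p = 0.0519, 0.0545 and 0.0607 to 0.0983, range over all alternatives 0.00485 to 0.0983). Of 2 manganese superoxide dismutases, DCAR_010472.v1.0 was higher, with 366, 402 and 343 FPKM in BC against 128, 126 and 117 FPKM in WT, and DCAR_019807.v1.0 lower, with 130, 149 and 117 FPKM in BC against 223, 185 and 224 FPKM in WT. Their log2 fold changes were 1.57 and -0.67. The 2 iron superoxide dismutases were not called.

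Of 3 genes described as copper chaperones 1 was lower, 1 higher and 1 not called, against 23.5% lower and 22.8% higher of all tested genes. The search words missed copper transport proteins ATX1 and CCH, which hold the heavy metal-associated domain and were looked up after the values had been seen. ATX1 (DCAR_006348.v1.0) had 612 ± 156 FPKM in BC and 337 ± 53.7 FPKM in WT, a log2 fold change of 0.84 (limma BH-adjusted p = 0.0210). CCH (DCAR_024797.v1.0) had 590 ± 20.6 FPKM in BC and 507 ± 93.9 FPKM in WT and was not called. The chaperone that loads copper into superoxide dismutase (DCAR_006775.v1.0) had 102, 98.3 and 93.0 FPKM in BC against 179, 146 and 167 FPKM in WT and fell by 0.74 on the log2 scale (SE 0.10, limma BH-adjusted p = 0.00145). The cytochrome c oxidase copper chaperone DCAR_017140.v1.0 had 90.4, 97.4 and 81.0 FPKM in BC against 71.4, 50.9 and 53.8 FPKM in WT, a log2 fold change of 0.61. Its call was lost on leaving out replicate 3 of WT or 1 of BC (limma BH-adjusted p = 0.0587 and 0.0519, range 0.00516 to 0.0587). Of 8 tested metal ATPases 2 were higher and 3 lower in BC, which is 25% and 37.5% against 22.8% and 23.5% of all tested genes. The higher ones were the chloroplast copper ATPases PAA1 (DCAR_001785.v1.0, log2 fold change 0.85) and PAA2 (DCAR_001233.v1.0, 0.54). The lower ones were an HMA3-like (DCAR_013543.v1.0, -1.39), a RAN1-like (DCAR_003767.v1.0, -0.70) and an HMA1 gene (DCAR_010852.v1.0, -0.30). The HMA1 gene is also described as chloroplastic, and its call was close to the threshold (limma BH-adjusted p = 0.0412).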

How the data were processed

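The authors deposited 1 table of FPKM values per gene and sample, rounded to 2 decimals, with protein descriptions and Pfam domains. Per the submitters' processing notes RSEM was used, its version not stated, and no source used here names the aligner, genome build or annotation. RSEM divides reads shared by similar genes, which leaves the values of near-identical copies uncertain; 0 tested members shared all 6 values with another gene. Columns were matched to samples by the samples' descriptions.

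The 21033 genes that reached 1 FPKM in 3 or more samples entered a limma model (version 3.58.1, R 4.3.3; lmFit and trended eBayes) of log2(FPKM + 1), BC minus WT. Benjamini-Hochberg adjustment ran over all of them. The fit was tested on simulated data. Plots used Python 3.11.15 and matplotlib 3.10.9.

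The members and lists were chosen with earlier results of these data known. The rule for named genes took called members whose mean reached 5 FPKM in a group, the called extremes and the most abundant member of each family, all tested members of families with up to 5, and the same extremes of the other metal-related genes; members that the text gives outside this rule were picked after their values were seen. Families were assigned by the function in the description, because taking the first search word that matched would have put vacuolar iron transporters and yellow stripe-like genes under other names. RefSeq (assembly DH1 v3.0) was used for neighbours only and matched 82 of the 92 members. Alternatives were pseudocounts of 0.1 and 5, no minimum level or 5 FPKM, scaling to equal totals, by median ratios or by quantiles, untrended and robust eBayes, a block for the replicate number, and leaving out every sample in turn.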

Additional observations from a re-analysis of the deposited data

How the results depend on the processing

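Of the 35 called members, 24 were called under each of the 16 alternatives that tested them, and 11 lost the call under at least 1. With a minimum of 5 FPKM, which tests 41 members, 14 were higher and 7 lower. These are 34.1% and 17.1%, against 21.7% and 25.7% of all genes then tested. With no minimum level 23 were higher and 11 lower. Rescaling to equal totals gave 23 and 12, median-ratio size factors 23 and 10, and quantile normalization 21 and 11. The median log2 fold change of all genes was -0.11 with equal totals and -0.08 with quantiles. Counts over all genes are not given here for no minimum level or for these scalings. The member counts alone therefore do not show how the members compared with all genes there. With each sample left out, 17 to 25 members were higher and 8 to 12 lower, and of the other metal-related genes 7 to 17 were higher and 12 to 18 lower. Over all genes 3446 to 4873 were then higher and 3193 to 5203 lower, the lowest of each without WT replicate 3. Same-numbered samples did not all deviate together (correlations across genes of 0.196, -0.356 and -0.195 for replicates 1 to 3). Pairs with different numbers ran from -0.305 (BC replicate 3 with WT replicate 1) to 0.394 (BC replicate 3 with WT replicate 2). The numbers are thus not known to pair the samples. With the replicate block 22 members were higher and 9 lower, against 4032 and 3921 of all genes. Among genes that were not called, leaving out 1 sample turned the sign of the log2 fold change of copper transporter 6-like DCAR_007413.v1.0 (-0.24 without WT replicate 1 to 0.11 without WT replicate 2, and 0.08 without BC replicate 2), of Nramp2 DCAR_020083.v1.0 (-0.11 without BC replicate 3 to 0.0042 without BC replicate 1) and of vacuolar iron transporter 1 DCAR_023568.v1.0 (-0.13 without BC replicate 3 to 0.051 without BC replicate 1, and 0.018 without WT replicate 2). The causes were not tested. Read depth is unknown, so no counting error can be given for low genes.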
